A study of Mus musculus with 95 samples.

Results

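The 34 proteasome subunit genes were followed in cerebral cortex messenger RNA of mice with 1 knock-in copy of the huntingtin (Htt) gene. The knock-in lines differ in CAG repeat length, from short to long. The members were a fixed list of gene symbols: the alpha and beta subunits of the 20S core particle (Psma and Psmb genes) and the ATPase and non-ATPase subunits of the 19S regulatory particle (Psmc and Psmd genes). All 34 were found among the 39179 genes of the deposited table, and all 34 passed the filter on low counts in every comparison. The list holds 7 alpha subunits, 7 constitutive beta subunits, 3 immunoproteasome subunits, 6 ATPase subunits and 11 non-ATPase subunits. The 31 members other than the 3 immunoproteasome subunits are called constitutive here.

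The proteasome degrades proteins that have been tagged with ubiquitin. Its core is a barrel of stacked rings: alpha subunits form the outer rings and act as a gate, and beta subunits form the inner rings, where Psmb5, Psmb6 and Psmb7 cut the substrate. In cells exposed to interferon gamma, and in immune cells, Psmb8 takes the place of Psmb5, Psmb9 that of Psmb6 and Psmb10 that of Psmb7, which changes the peptides released. The regulatory particle sits on the barrel: its Psmc subunits form an ATP-driven ring that unfolds the substrate, and its Psmd subunits bind and remove ubiquitin. Huntingtin with a long glutamine tract forms inclusions that contain ubiquitin and proteasomes, which is why the proteasome has long been studied in Huntington's disease.

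Heterozygous knock-in mice of 4 lines, named Q20, Q50, Q92 and Q140 after their CAG repeat length, were sampled with wild-type mice at 10 and 6 months, males and females alike, all on a C57BL/6 background. Wild types shared cages either with Q20 mice (called WTwithQ20 here) or with Q50 mice (WTwithQ50), while Q92 mice lived with Q92 mice and Q140 mice with Q140 mice. Each of the 24 combinations of line, age and sex has 4 libraries, except male Q140 at 10 months with 3, which makes 95 in all. Q20 was set against WTwithQ20, Q50 against WTwithQ50, and Q92 and Q140 against the average of the pair of wild-type groups. The Q92 and Q140 comparisons therefore share all their wild types, and the other 2 lines each use a part of them. Each line is a single knock-in allele with its own housing, so allele and housing cannot be told apart for Q92 and Q140.

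The summed estimated counts per library were between 30.3 M and 41.1 M, and the members took 0.208% to 0.277% of them. The cortical excitatory neuron markers were all present, with summed levels between 4043 and 5216 CPM (counts scaled to a common library total). Htt itself, the targeted gene, was lower in Q140 than in wild-type cortex at 10 months by edgeR's quasi-likelihood test (log2 difference -0.17 ± 0.045, standard error; adjusted p = 0.040) and was not called in the other 7 comparisons of a line with wild type. The members did not vary independently between libraries. In Q92_6mo_Male replicate 3 the median constitutive member lay 0.35 above its group's median on the log2 scale, and 30 of 31 were at the top of the group of 8. In Q50_6mo_Female replicate 4 the same median was 0.28, with 28 of 31 at the top. These libraries also had the largest mitochondrial shares of counts, 13.6% and 14.7%, against a median of 10.6% over all libraries. Their summed counts, 39.3 M and 41.1 M, were the largest too, against a median of 34.1 M. WTwithQ20_10mo_Male replicate 2 came next, 0.17 above its group with 26 of 31 at the top. In all 3 of these libraries Psmd1 had the lowest deviation of the constitutive members. Results at 6 months are given with and without the first 2 libraries, and the part of mitochondrial share or depth in the members' levels was not tested.

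**Figure D1:**
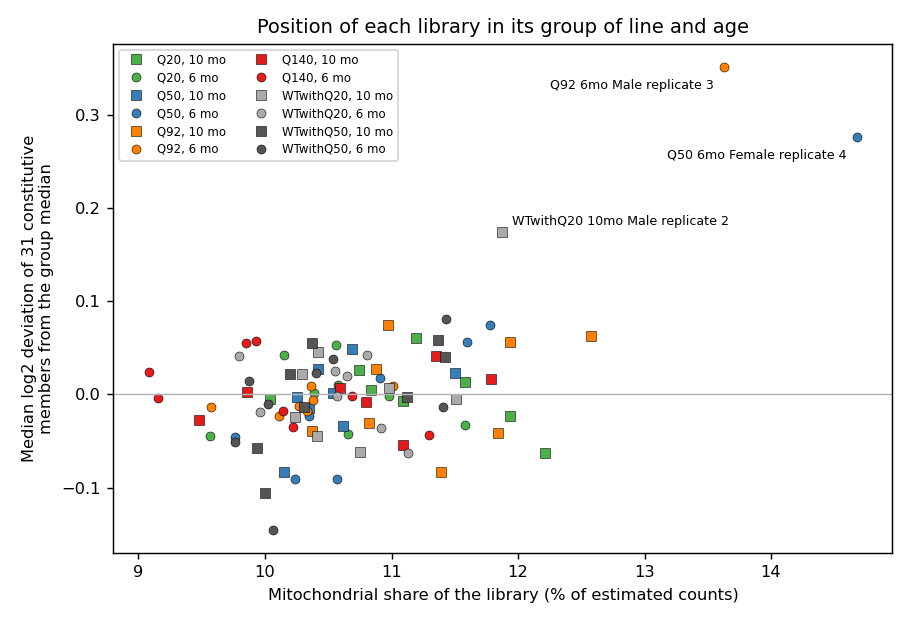
Each point is 1 of the 95 libraries: the horizontal axis is the mitochondrial share of its estimated counts in percent, and the vertical axis is the median log2 deviation of its 31 constitutive members from the median of its group of line and age. The Q92 and Q50 libraries at 13.6% and 14.7% stand highest, at 0.35 and 0.28, and WTwithQ20_10mo_Male replicate 2 follows at 0.17.

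In wild-type cortex the constitutive subunits were expressed within a narrow band and the interferon-inducible Psmb8 and Psmb9 far below it. Levels between genes are given in FPKM, which the authors scaled to gene length and depth, as mean ± SD over the 32 wild-type libraries. Psmc5, an ATPase of the regulatory particle, was highest at 93.8 ± 3.5 FPKM, and Psmd11, a scaffold subunit of its lid, was the lowest constitutive member at 22.9 ± 0.98 FPKM, a ratio of 4.10 between the means. Of the 7 alpha subunits Psma7 was highest (64.8 ± 4.0 FPKM), and Psma2 (62.0 ± 4.0), Psma3 (61.0 ± 3.8), Psma6 (58.7 ± 3.4), Psma1 (49.5 ± 2.7), Psma4 (49.5 ± 2.9) and Psma5 (39.7 ± 2.5) followed.

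The constitutive beta subunits with cutting sites had similar levels: 73.8 ± 4.2 FPKM for Psmb6 (caspase-like site), 68.3 ± 3.6 FPKM for Psmb7 (trypsin-like site) and 58.3 ± 2.8 FPKM for Psmb5 (chymotrypsin-like site). The beta subunits without one were Psmb1 (78.4 ± 3.9 FPKM), Psmb4 (68.5 ± 4.2), Psmb3 (52.1 ± 3.4) and Psmb2 (43.8 ± 2.7). Psmb5, Psmb6 and Psmb7 each have 1 named pseudogene in the deposited table, so their levels are uncertain to the extent that reads were shared with it. Their estimated counts were whole in 100%, 73.7% and 100% of libraries. For Psma3, Psmb3, Psmd2 and Psmd11 the counts were whole in 0% of libraries, so reads shared with other genes are a limit for these levels too.

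In the ATPase ring Psmc5 was followed by Psmc1 (71.0 ± 4.1 FPKM), Psmc3 (65.2 ± 2.7), Psmc4 (49.4 ± 2.6), Psmc2 (43.6 ± 2.3) and Psmc6 (40.2 ± 2.2). Among the non-ATPase subunits Psmd2, the scaffold that receives shuttle proteins, was highest (61.3 ± 1.8 FPKM), with the ubiquitin receptor Psmd4 next (51.5 ± 2.6). Psmd7 (48.0 ± 2.2 FPKM), Psmd8 (46.4 ± 2.2), Psmd3 (43.1 ± 2.3), the deubiquitinase Psmd14 (40.9 ± 2.6), Psmd13 (38.8 ± 2.0), the scaffold Psmd1 (36.1 ± 2.0), Psmd6 (35.9 ± 1.8) and Psmd12 (32.1 ± 1.8) lay between these and Psmd11.

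The immunoproteasome subunits did not share a level. Psmb10 was at 15.3 ± 1.3 FPKM (12.5 to 17.7 over the libraries), below every constitutive member. Psmb8 was at 2.19 ± 0.53 FPKM (1.22 to 3.502) and Psmb9 at 0.923 ± 0.23 FPKM (0.600 to 1.56), which rests on means of 96.1 and 45.8 estimated counts per library. In the order of the 34 means, the only neighbours whose ranges over the 32 libraries did not overlap were Psmd12 and Psmd11, Psmd11 and Psmb10, and Psmb10 and Psmb8. All other neighbours overlapped.

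The constitutive members varied little between wild-type libraries: the coefficient of variation of FPKM was 2.95% for Psmd2 at the lowest and 6.54% for Psmb3 at the highest, with a median of 5.42%. The median was 6.05% over 2728 genes in the same FPKM range and 10.8% over all genes tested. Psmb10 varied by 8.51%, Psmb8 by 24.0% and Psmb9 by 24.7%, the last 2 at the low counts given above.

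**Figure D2:**
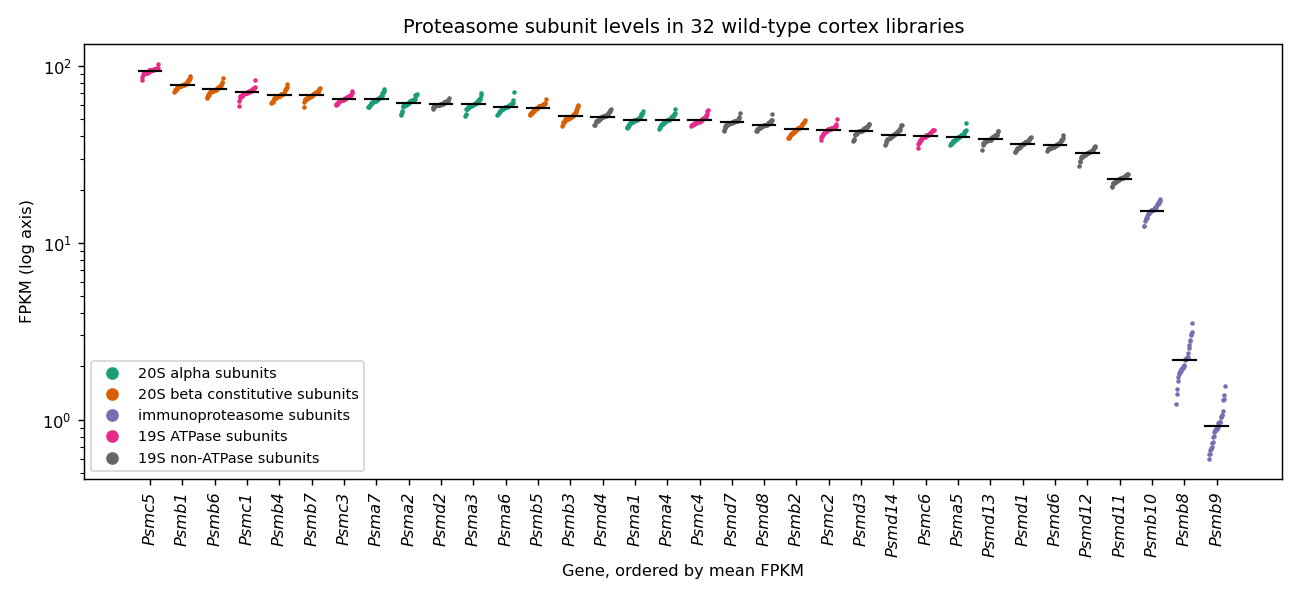
Levels of the 34 subunit genes in FPKM (log axis) in the 32 wild-type libraries, with genes along the horizontal axis in the order of their mean and coloured by class. Small points are libraries, spread sideways by rank, and bars are means. The constitutive members lie between means of 22.9 and 93.8 FPKM, and Psmb10, Psmb8 and Psmb9 below them at 15.3, 2.19 and 0.923 FPKM.

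At 10 months, 2 subunits were lower in Q20, the line with the shortest repeat, than in WTwithQ20 cortex. They were Psmb5, the core subunit with the chymotrypsin-like site, and Psmc5, an ATPase of the regulatory particle. No subunit was higher, and 4.35% of the 17813 genes tested were called in this comparison in either direction. Gene levels within a comparison are in CPM scaled by edgeR's TMM method. Because they carry these calls, the 250 bases before the RefSeq start of each gene are printed (assembly GRCm38.p6), 5′ to 3′ on the gene's strand. Capitals mark a match to TGACNNNGC, the core of the antioxidant response element that NRF1 and NRF2, known activators of proteasome genes, recognise. The Psmb5 window is chr14:54617996-54618245 on the minus strand and the Psmc5 window is chr11:106255935-106256184 on the plus strand. The Psmb5 window holds 1 match, and the Psmc5 window holds none.
Psmb5: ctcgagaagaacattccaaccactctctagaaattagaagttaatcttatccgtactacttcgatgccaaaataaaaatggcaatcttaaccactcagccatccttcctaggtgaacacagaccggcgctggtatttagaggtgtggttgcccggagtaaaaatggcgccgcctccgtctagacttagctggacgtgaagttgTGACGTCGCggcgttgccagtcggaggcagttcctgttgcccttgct
Psmc5: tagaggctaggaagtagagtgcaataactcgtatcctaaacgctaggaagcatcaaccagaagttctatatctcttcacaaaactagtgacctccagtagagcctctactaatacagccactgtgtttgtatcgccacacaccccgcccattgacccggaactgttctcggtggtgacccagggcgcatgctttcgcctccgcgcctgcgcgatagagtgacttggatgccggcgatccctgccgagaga

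Psmb5 was between 43.7 and 53.1 CPM in Q20 cortex at 10 months, with a median of 46.1, against 48.4 to 53.3 CPM with a median of 52.9 in WTwithQ20 cortex. All Q20 libraries but Q20_10mo_Female replicate 4 lay below the WTwithQ20 mean, and the groups overlapped. The means were 47.0 ± 3.0 and 52.1 ± 1.8 CPM (SD, n = 8 each), a log2 difference of -0.15 ± 0.042 (standard error; adjusted p = 0.037, edgeR).

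Psmc5 was between 115.9 and 124.1 CPM in Q20 cortex, with a median of 119.5, against 123.2 to 135.7 CPM with a median of 126.8 in WTwithQ20 cortex. All 8 Q20 libraries lay below the WTwithQ20 mean, and the groups overlapped only at their edges. The means were 119.6 ± 3.1 and 127.3 ± 4.1 CPM, a log2 difference of -0.091 ± 0.027 (adjusted p = 0.045, edgeR).

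The other members were mostly below zero in the same comparison. Of all 34, 28 had a negative log2 difference, against 50.5% of all genes tested, and the median member stood at -0.057. The constitutive beta subunits were all negative (7 of 7, median -0.088), as were 5 of 6 ATPases (median -0.075), 6 of 7 alpha subunits (median -0.048) and 8 of 11 non-ATPase subunits (median -0.028). Before adjustment 14 members had p under 0.05, all lower in Q20, against 10.2% of all genes that were lower at that p. Besides Psmb5 and Psmc5, which were called, these included Psmb10 (-0.17), Psmb6 (-0.11), Psma5 (-0.10), Psma7 (-0.094), Psmc3 (-0.092) and Psmd7 (-0.084), with adjusted p between 0.093 and 0.12 in edgeR's test. The members' levels move together between libraries, so these 14 are not independent of each other.

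Both calls lay close to the threshold and depended on single libraries. None of the members was called once any of 12 libraries was left out: Q20_10mo_Female replicates 1 and 2, Q20_10mo_Male replicates 1, 2, 3 and 4, WTwithQ20_10mo_Female replicates 1, 3 and 4, and WTwithQ20_10mo_Male replicates 1, 2 and 3. Psmb5 alone was called without WTwithQ20_10mo_Male replicate 4, and 6 members were called without Q20_10mo_Female replicate 4, Psmb10 and Psmb6 among them. Over these fits the adjusted p of Psmb5 was between 0.0059 and 0.11 and that of Psmc5 between 0.021 and 0.13. The median of the 34 members moved to -0.029 without WTwithQ20_10mo_Male replicate 2, the wild-type library described above as high in 26 of 31 members. Against both wild-type groups together none was called, with log2 differences of -0.11 for Psmb5 (adjusted p = 0.097) and an adjusted p of 0.18 for Psmc5. With the L code of the sample descriptions as a factor in the fit, Psmb5 had a log2 difference of -0.13 (adjusted p = 0.13) and no member was called. In that factor, libraries whose description has no D code after the L code shared a level, whatever their L code. Q20_10mo_Female replicate 1 and Q20_10mo_Male replicate 1 were in it, and the WTwithQ20 libraries were all at other levels.

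Markers of striatal neurons moved with this comparison. All 12 striatal projection neuron markers were called higher in Q20 cortex (median log2 difference 1.48), with summed levels of 357.8 to 1538 CPM in Q20 libraries, against 357.8 to 475.7 CPM in WTwithQ20 libraries. The 5 forebrain cholinergic markers tested were also higher (median 3.13), with sums of 1.72 to 29.4 CPM against 1.04 to 2.45 CPM. Of 7 interneuron markers 1 was higher and 2 were lower (median 0.092), and 1 marker each of the endothelial, cortical excitatory neuron and lymphocyte lists was higher. No marker of the striatal and cholinergic lists was at 0 throughout, and the part of all these in the lower Psmb5 and Psmc5 was not tested. In such bulk tissue, fewer cells of a type and less RNA per cell cannot be told apart.

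**Figure D3:**
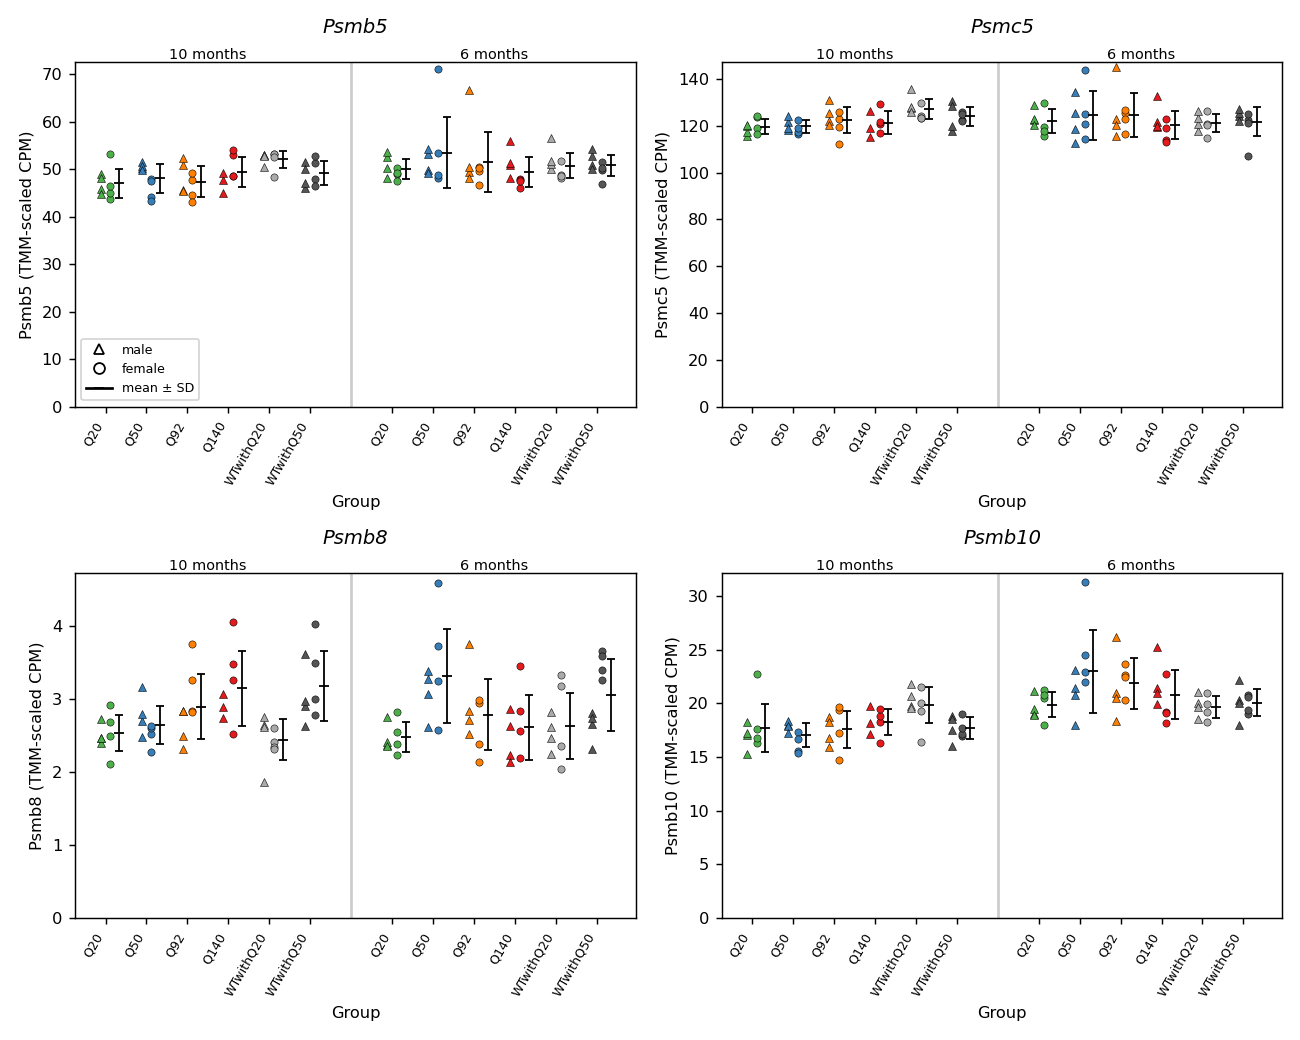
TMM-scaled CPM of Psmb5, Psmc5, Psmb8 and Psmb10 in each library, by line and age (10 months on the left, 6 months on the right, knock-in lines before wild types), with males and females marked and the mean ± SD beside them. At 10 months Q20 libraries have medians of 46.1 CPM for Psmb5 and 119.5 CPM for Psmc5, below WTwithQ20 at 52.9 and 126.8 CPM, and Psmb8 is lower in WTwithQ20 (median 2.51 CPM) than in WTwithQ50 (2.99 CPM).

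In the other 3 lines at 10 months no member was called. The share of all genes called was 0.0561% for Q50, 0.853% for Q92 and 1.2% for Q140. The median member differed from wild type by -0.019 in Q50 (27 of 34 negative), -0.017 in Q92 (22 negative) and -0.0022 in Q140 (18 negative) on the log2 scale, while 49.8%, 49.4% and 50.5% of all genes were negative in these lines. The 95% intervals of the 31 constitutive members together reached from -0.127 to 0.136 in Q50, from -0.171 to 0.1497 in Q92 and from -0.116 to 0.111 in Q140. Constitutive members with an unadjusted p under 0.05 were Psmc2 in Q50 (0.071, adjusted p = 0.9998), Psmb5 and Psmd3 in Q92 (-0.097 and -0.062) and Psmd1 in Q140 (0.052, adjusted p = 0.37).

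The 2 genes called in Q20 were not called in these lines. WTwithQ20, the reference of the Q20 calls, had the highest median of all groups at this age in both genes. Its medians were 52.9 CPM for Psmb5 and 126.8 CPM for Psmc5, and those of Q20 were 46.1 and 119.5 CPM, near the other lines. Median Psmb5 was 48.9 CPM in Q50 (43.3 to 51.4), 46.8 CPM in Q92 (43.1 to 52.3) and 48.7 CPM in Q140 (44.9 to 54.0), against 49.0 CPM in WTwithQ50 (46.0 to 52.7). Median Psmc5 was 119.0 CPM in Q50 (116.5 to 124.4), 122.5 CPM in Q92 (112.1 to 130.9) and 120.7 CPM in Q140 (115.4 to 129.5), against 123.8 CPM in WTwithQ50 (117.8 to 130.5). The groups overlapped throughout, and the adjusted p of Psmb5 in Q92 was 0.21 (edgeR). Against WTwithQ20 alone, Psmb5 was called lower in Q92 (-0.14, adjusted p = 0.035), and Psmb8 (0.36, adjusted p = 0.022) and Psmd1 (0.093, adjusted p = 0.043) were called higher in Q140. The wild-type groups themselves lay apart in these genes. Median Psmb8 was 3.08 CPM in Q140, 2.99 CPM in WTwithQ50 and 2.51 CPM in WTwithQ20. Median Psmd1 was 111.9 CPM in Q140, 110.8 CPM in WTwithQ50 and 104.9 CPM in WTwithQ20.

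At 6 months no member was called in any line. The share of all genes called was 0.0169% for Q20, 0.0226% for Q50, 7.83% for Q92 and 3.52% for Q140, so the absence of calls among the members falls in 2 comparisons where other genes passed the test and 2 where nearly none did. The median member stood at -0.023 in Q20 (28 of 34 negative), 0.036 in Q50 (32 positive), 0.024 in Q92 (27 positive) and -0.031 in Q140 (28 negative). Of all genes 49.4% were negative in Q20, 49.9% positive in Q50, 52.2% positive in Q92 and 49.6% negative in Q140. Without the 2 libraries of high mitochondrial share the signs of the Q50 and Q92 medians turned, to -0.0077 (24 negative) and -0.022 (26 negative), and again no member was called. The 95% intervals of the constitutive members reached from -0.188 to 0.116 in Q20, from -0.0918 to 0.207 in Q50, from -0.118 to 0.160 in Q92 and from -0.168 to 0.128 in Q140. All 12 striatal projection neuron markers were lower in Q92 and in Q140 (medians -1.35 and -1.28), as were the 5 forebrain cholinergic markers tested. Markers of other lists were called in both directions in these 2 lines. The part of all these in the members' values was not tested.

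At this age Psmb5 had medians of 49.8 CPM in Q20 (47.5 to 53.7), 51.6 CPM in Q50 (48.1 to 71.2), 50.0 CPM in Q92 (46.6 to 66.7) and 48.1 CPM in Q140 (46.0 to 55.9), against 50.55 CPM in WTwithQ20 (48.1 to 56.5) and 50.55 CPM in WTwithQ50 (46.9 to 54.2). Psmc5 had medians of 121.3 CPM in Q20 (115.8 to 129.6), 123.1 CPM in Q50 (112.7 to 144.1), 123.0 CPM in Q92 (115.5 to 145.4) and 119.8 CPM in Q140 (113.1 to 132.7), against 120.8 CPM in WTwithQ20 (114.7 to 126.3) and 123.3 CPM in WTwithQ50 (107.2 to 127.3). The highest Q50 and Q92 values of both genes belong to the libraries that stand apart, and the groups otherwise overlapped.

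**Figure D4:**
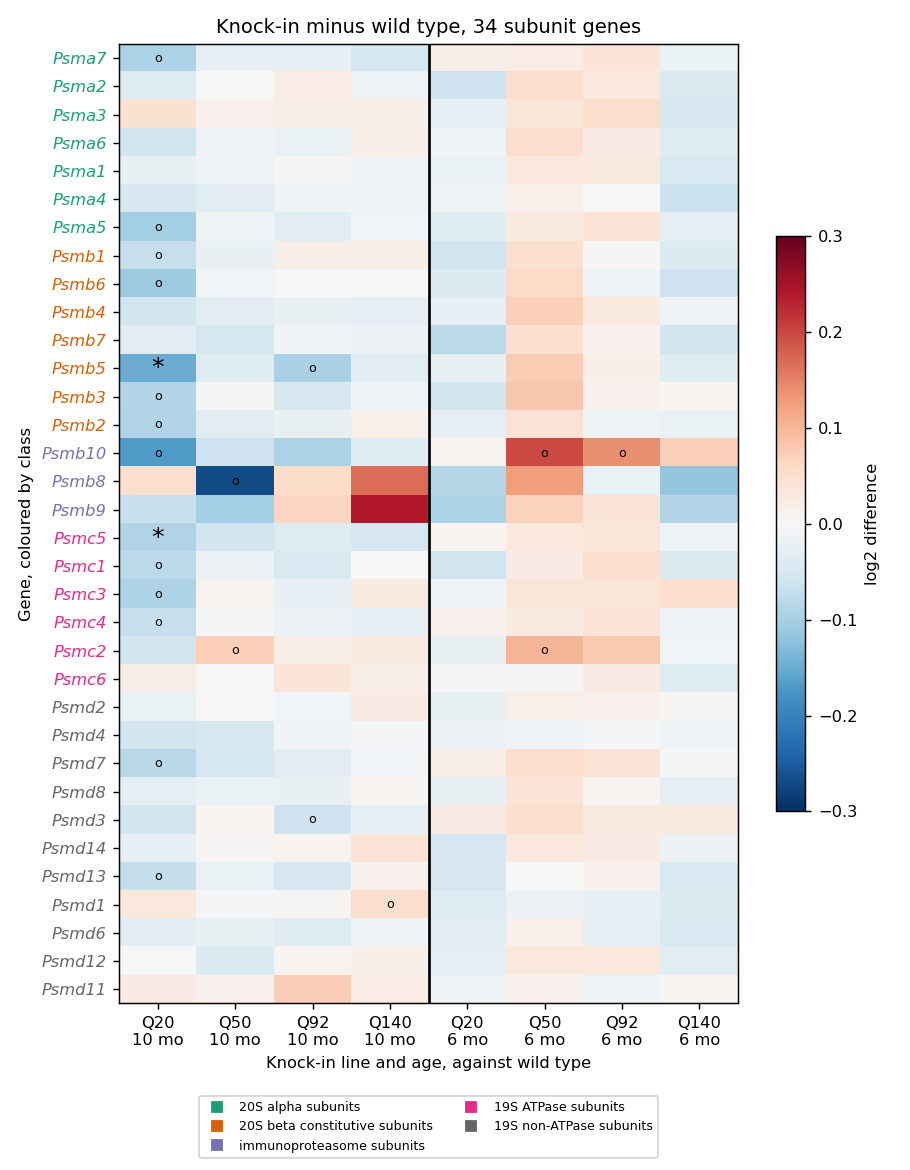
Log2 difference of each knock-in line from its wild types for the 34 subunit genes (rows, coloured by class), at 10 months in the left columns and 6 months in the right, with the colour scale in log2 units, a star for an adjusted p under 0.05 and a circle for an unadjusted p under 0.05 only. The Q20 column at 10 months is negative in 28 of 34 rows, and the Q50 and Q92 columns at 6 months are positive in 32 and 27.

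The cutting subunits Psmb6 and Psmb7 were not called in any line. Psmb6 at 10 months had medians of 53.0 CPM in Q20 (49.7 to 57.4), 56.5 CPM in Q50 (53.5 to 59.96), 56.3 CPM in Q92 (52.4 to 62.8) and 56.0 CPM in Q140 (52.2 to 62.1), against 57.5 CPM in WTwithQ20 (53.7 to 64.0) and 56.4 CPM in WTwithQ50 (53.7 to 59.8). Its values at 6 months were 58.4 CPM in Q20 (52.4 to 61.5), 58.8 CPM in Q50 (55.2 to 82.3), 56.0 CPM in Q92 (52.7 to 76.4) and 55.9 CPM in Q140 (54.0 to 61.6), against 59.2 CPM in WTwithQ20 (56.7 to 61.6) and 58.2 CPM in WTwithQ50 (56.5 to 64.2). The groups overlapped at both ages, and all 8 Q20 libraries at 10 months lay below the WTwithQ20 mean of Psmb6.

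Psmb7 at 10 months had medians of 75.2 CPM in Q20 (68.6 to 78.8), 78.8 CPM in Q50 (73.8 to 84.3), 77.7 CPM in Q92 (74.3 to 83.9) and 78.1 CPM in Q140 (71.0 to 85.9), against 76.5 CPM in WTwithQ20 (69.9 to 87.2) and 79.9 CPM in WTwithQ50 (78.4 to 86.6). At 6 months its medians were 76.3 CPM in Q20 (72.4 to 81.3), 78.5 CPM in Q50 (72.2 to 102.9), 76.5 CPM in Q92 (73.2 to 105.6) and 75.7 CPM in Q140 (74.1 to 79.2), against 81.3 CPM in WTwithQ20 (76.9 to 82.7) and 78.0 CPM in WTwithQ50 (74.6 to 81.3). The knock-in and wild-type values of Psmb7 overlapped in every line at both ages, and the highest Q50 and Q92 values at 6 months again come from the libraries that stand apart.

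Of the immunoproteasome subunits, Psmb8 differed between wild-type groups of different housing, and none was called between a line and its wild types. Psmb8 and Psmb9 lie close together on chromosome 17, in the class II region of the major histocompatibility complex. Their RefSeq starts are 10865 bases apart, and Psmb9 starts 226 bases from Tap1, a peptide transporter gene on the opposite strand. Their windows of 250 bases before the start are printed because these 2 genes are textbook interferon targets. The Psmb8 window is chr17:34197945-34198194 on the plus strand, and holds none of the motifs reported here. The Psmb9 window is chr17:34187331-34187580 on the minus strand, with capitals at a CCAAT box read on the opposite strand.
Psmb8: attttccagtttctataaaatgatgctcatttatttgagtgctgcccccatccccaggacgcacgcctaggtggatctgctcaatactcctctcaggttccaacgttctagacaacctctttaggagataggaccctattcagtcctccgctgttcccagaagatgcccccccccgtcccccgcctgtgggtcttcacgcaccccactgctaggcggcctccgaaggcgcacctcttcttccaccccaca
Psmb9: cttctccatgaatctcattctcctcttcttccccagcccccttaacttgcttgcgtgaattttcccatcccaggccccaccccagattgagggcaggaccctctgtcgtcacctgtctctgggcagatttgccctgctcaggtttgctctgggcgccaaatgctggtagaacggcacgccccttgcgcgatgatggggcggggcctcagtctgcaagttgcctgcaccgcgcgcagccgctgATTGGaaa

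At 10 months Psmb8 was between 1.86 and 2.75 CPM in WTwithQ20 cortex, with a median of 2.51, against 2.63 to 4.03 CPM with a median of 2.99 in WTwithQ50 cortex. All 8 WTwithQ20 libraries lay below the WTwithQ50 mean, and the groups overlapped narrowly. The means were 2.44 ± 0.28 and 3.18 ± 0.48 CPM (SD, n = 8 each), a log2 difference of -0.38 ± 0.096 (adjusted p = 0.012, edgeR). Psmb8 was the only member called in this comparison of wild types, where 7.03% of all genes were called, and it stayed called in every alternative fit and with any single library left out (adjusted p from 0.0064 to 0.036). The number of members called was 2 without WTwithQ20_10mo_Female replicate 3, WTwithQ20_10mo_Male replicates 2 or 4, WTwithQ50_10mo_Female replicate 2, or WTwithQ50_10mo_Male replicates 2 or 4, and 3 without WTwithQ20_10mo_Female replicate 2.

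Other cell markers also differed between these wild types. All 12 striatal projection neuron markers were lower in WTwithQ20 (median log2 difference -1.32; sums of 357.8 to 475.7 CPM against 398.9 to 1183 CPM), as were the 5 cholinergic markers tested (median -3.10; 1.04 to 2.45 CPM against 2.55 to 26.4 CPM). Of 8 meningeal markers 4 were lower (median -0.57; 47.4 to 111.4 CPM against 76.9 to 124.8 CPM). Of 8 astrocyte markers 2 were higher (median 0.061), of 9 cortical excitatory neuron markers 2 were higher and 1 was lower (median 0.12), of 7 endothelial markers 1 was higher and 2 were lower (median -0.050), of 7 interneuron markers 1 was higher and 1 lower, and 1 of 3 lymphocyte markers tested was lower. None of 12 microglial markers was called (median 0.063; 460.0 to 523.9 CPM against 436.7 to 529.5 CPM). No marker of the striatal, cholinergic, meningeal and microglial lists was at 0 throughout, and the part of all these in the Psmb8 difference was not tested.

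Psmd1 (-0.081, adjusted p = 0.062), Psmb7 (-0.088, adjusted p = 0.13) and Psmb10 (0.16, adjusted p = 0.10) also had unadjusted p under 0.05 between the wild types at 10 months. At 6 months no member was called between the wild-type groups, where 0.0903% of all genes were called. Psmb8 then had a log2 difference of -0.22 ± 0.11 (adjusted p = 0.65), with 2.04 to 3.33 CPM in WTwithQ20 and 2.31 to 3.66 CPM in WTwithQ50.

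At 10 months Psmb8 had medians of 2.48 CPM in Q20 (2.11 to 2.91), 2.62 CPM in Q50 (2.28 to 3.17), 2.83 CPM in Q92 (2.31 to 3.75) and 3.08 CPM in Q140 (2.53 to 4.05). The log2 differences were 0.048 in Q20, -0.27 ± 0.094 in Q50 (adjusted p = 0.9998), 0.055 in Q92 and 0.17 ± 0.085 in Q140 (adjusted p = 0.40). All 8 Q50 libraries lay below the WTwithQ50 mean, and 5 of 7 Q140 libraries lay above the mean of all wild types.

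At 6 months Psmb8 had medians of 2.39 CPM in Q20 (2.23 to 2.82), 3.26 CPM in Q50 (2.58 to 4.59), 2.77 CPM in Q92 (2.13 to 3.75) and 2.59 CPM in Q140 (2.13 to 3.45), against 2.54 CPM in WTwithQ20 and 3.03 CPM in WTwithQ50. The Q20 and WTwithQ20 libraries were again lower than the Q50 and WTwithQ50 libraries by median, and all groups overlapped.

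Psmb9, at about 1 CPM, was too low for small differences. At 10 months its medians were 1.11 CPM in Q20 (0.910 to 1.49), 1.35 CPM in Q50 (0.836 to 1.73), 1.40 CPM in Q92 (0.976 to 1.56) and 1.58 CPM in Q140 (1.16 to 2.02), against 1.14 CPM in WTwithQ20 (0.879 to 1.49) and 1.38 CPM in WTwithQ50 (1.04 to 2.26). At 6 months they were 1.37 CPM in Q20 (0.932 to 1.60), 1.36 CPM in Q50 (1.10 to 2.20), 1.40 CPM in Q92 (0.972 to 2.23) and 1.24 CPM in Q140 (0.824 to 1.89), against 1.41 CPM in WTwithQ20 (0.964 to 1.70) and 1.42 CPM in WTwithQ50 (1.02 to 1.98). The groups overlapped throughout, and the standard error of a line's log2 difference in Psmb9 was between 0.12 and 0.16.

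Psmb10 at 10 months had medians of 17.1 CPM in Q20 (15.3 to 22.7), 17.3 CPM in Q50 (15.4 to 18.3), 17.7 CPM in Q92 (14.7 to 19.7) and 18.3 CPM in Q140 (16.3 to 19.8), against 19.9 CPM in WTwithQ20 (16.4 to 21.8) and 17.6 CPM in WTwithQ50 (16.03 to 19.03). At 6 months the medians were 20.0 CPM in Q20 (17.98 to 21.3), 22.5 CPM in Q50 (17.97 to 31.3), 21.7 CPM in Q92 (18.3 to 26.2) and 20.4 CPM in Q140 (18.1 to 25.2), against 19.8 CPM in WTwithQ20 (18.3 to 21.03) and 20.2 CPM in WTwithQ50 (17.99 to 22.2). In all 4 lines the median was below that of the wild types compared at 10 months and above it at 6 months, and no line's age difference was called. At 10 months the Q92 and Q140 medians were below those of all wild types (18.9 CPM) and WTwithQ20, but above that of WTwithQ50. These lines are set against the same wild types, so the 4 positions are not independent. The log2 differences at 6 months were 0.20 ± 0.072 in Q50 (adjusted p = 0.80) and 0.14 ± 0.062 in Q92 (adjusted p = 0.19), with 7 of 8 libraries above the wild-type mean in each. Without the 2 libraries of high mitochondrial share they were 0.12 in Q50 and 0.094 in Q92.

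The share of each immunoproteasome subunit relative to the constitutive subunit it replaces was taken as a ratio of FPKM, which cancels what moves all members of a library together. Over the 95 libraries Psmb8 was 2.05% to 6.44% of Psmb5 (median 3.73%), Psmb9 was 0.712% to 2.55% of Psmb6 (median 1.27%), and Psmb10 was 16.7% to 30.5% of Psmb7 (median 22.6%). In 24 exact two-sided permutation tests (3 ratios, 4 lines, 2 ages) none had a Benjamini-Hochberg adjusted p under 0.05; the smallest adjusted p was 0.16.

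Before adjustment 5 of the 24 tests had p under 0.05. Psmb8 was 3.19% to 4.36% of Psmb5 in Q20 cortex at 10 months (median 3.45%), against 2.05% to 3.69% in WTwithQ20 cortex (median 3.17%), a log2 difference of 0.23 with all 8 Q20 libraries above the WTwithQ20 mean (exact permutation p = 0.026, adjusted p = 0.16). The other 4 were Psmb10 over Psmb7 at 6 months in each line: 0.090 in Q20 (exact permutation p = 0.040, adjusted p = 0.19), 0.14 in Q50 (p = 0.018), 0.13 in Q92 (p = 0.013) and 0.12 in Q140 (p = 0.022), each of the last 3 with an adjusted p of 0.16. The Q92 and Q140 comparisons use the same wild types, which are those of Q20 and Q50 together, so their values are not independent of the others; Q20 and Q50 have no library in common. In percent, median Psmb10 over Psmb7 at 6 months was 23.8% in Q20, 26.4% in Q50, 25.7% in Q92 and 24.3% in Q140, against 22.3% in WTwithQ20 and 23.8% in WTwithQ50. Without Q92_6mo_Male replicate 1 the Q92 difference was 0.17 with an adjusted p of 0.036.

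**Figure D5:**
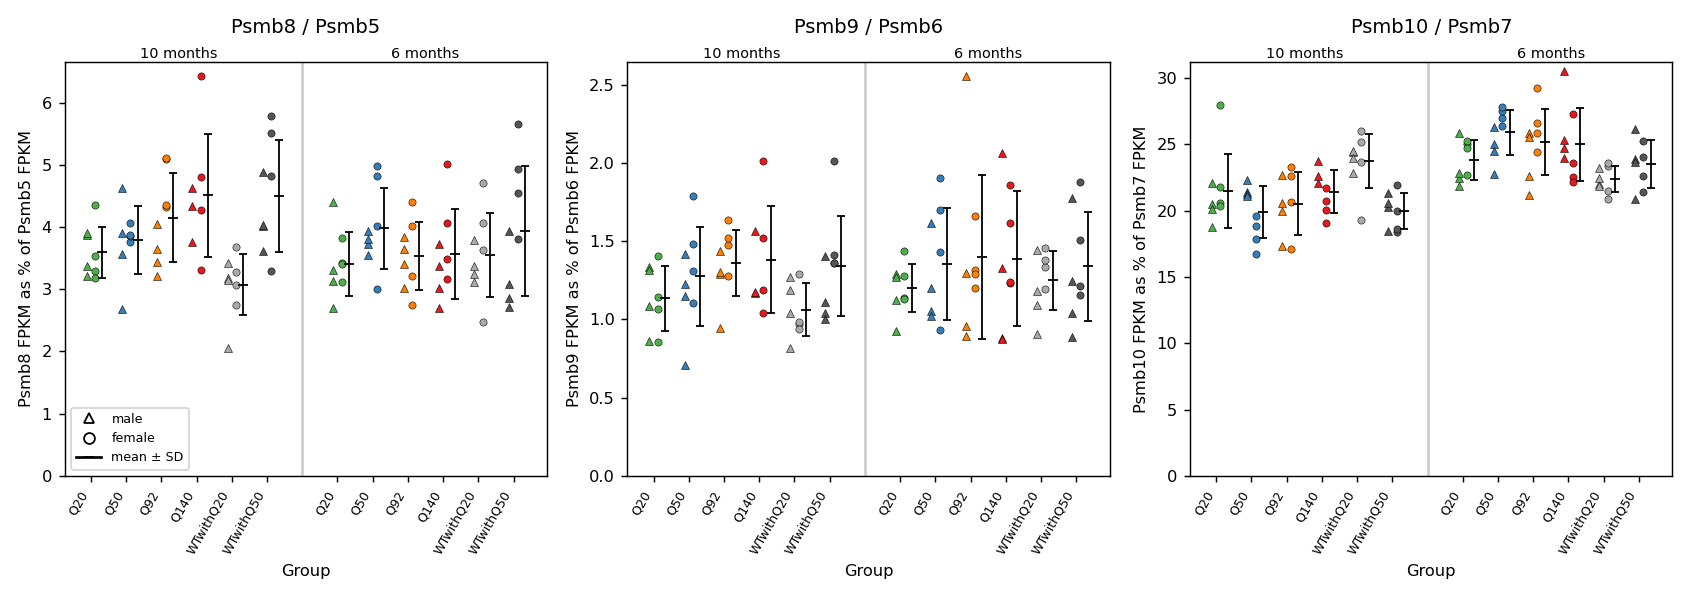
FPKM of each immunoproteasome subunit as a percent of the constitutive subunit it replaces, for each of the 95 libraries by line and age (10 months left, 6 months right), with mean ± SD. Psmb8 is 2.05% to 6.44% of Psmb5, Psmb9 is 0.712% to 2.55% of Psmb6 and Psmb10 is 16.7% to 30.5% of Psmb7, and the knock-in and wild-type groups overlap in all 3 panels.

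Across the 4 knock-in lines, no member's slope on CAG length was called at either age. At 10 months 0.891% of all genes had a called slope, and at 6 months 1.78%. The slopes per 100 CAG repeats at 10 months were positive in 32 of 34 members, against 49.9% of all genes, with a median of 0.042 on the log2 scale. Of the members 11 had an unadjusted p under 0.05, all with positive slopes, against 6.59% of all genes with a positive slope at that p. Psmb8 had the lowest adjusted p of the members (slope 0.27 ± 0.074, adjusted p = 0.080, edgeR), and Psmb9 had a slope of 0.33 ± 0.11 (adjusted p = 0.15). Psmb8 was called when Q140_10mo_Female replicate 1 was left out (0.31, adjusted p = 0.037). Q20, the low end of these slopes, is the line in which the members lay lowest, and the lines differ in housing as well as in repeat length. At 6 months the median slope was -0.015, with 27 of 34 negative, against 50.4% of all genes. Cell markers moved with the slopes at 10 months. Of 8 oligodendrocyte markers 3 were called with negative slopes (median -0.18), as were 1 of 12 striatal projection neuron markers (median -0.66), 1 of 8 astrocyte markers (median -0.086) and 1 of 3 lymphocyte markers tested. Of 8 meningeal markers 1 was called with a positive slope (median 0.52), and none of the other lists had a call. Their part in the members' slopes was not tested.

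The line effects were also compared between ages. No member was called for Q20, Q50, Q92 or Q140, where 0.693%, 0%, 9.63% and 1.79% of all genes were called. For Psmb5 the Q20 effect at 10 months minus that at 6 months was -0.13 ± 0.072 (adjusted p = 0.43) and for Psmc5 it was -0.098 ± 0.049 (adjusted p = 0.36), so the lower levels at 10 months were not shown to differ from 6 months. Psmb10 in Q92 came nearest to a call, at -0.23 ± 0.083 (adjusted p = 0.058, edgeR). It was called without any of Q92_6mo_Female replicate 1, Q92_10mo_Female replicates 3 or 4, Q92_6mo_Male replicate 1, Q92_10mo_Male replicate 1, WTwithQ20_10mo_Female replicate 2, WTwithQ20_6mo_Male replicate 2, WTwithQ50_6mo_Male replicate 1 or WTwithQ50_10mo_Male replicate 2 (adjusted p as low as 0.025). Without the 2 libraries of high mitochondrial share its difference was -0.19 (adjusted p = 0.096). In the same comparison 10 of 12 striatal markers were higher (median 1.27), as were the 5 cholinergic, 3 olfactory bulb and 5 of 8 meningeal markers. Of 9 cortical excitatory neuron markers 1 was higher and 7 were lower (median -0.24), and 6 of 8 oligodendrocyte markers were lower. Interneuron, astrocyte and endothelial lists had fewer calls. Their part in the Psmb10 difference was not tested. Psmb8 differed between ages by -0.39 ± 0.14 in the Q50 effect (adjusted p = 0.90) and by 0.29 ± 0.13 in the Q140 effect (adjusted p = 0.27).

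Between 10 and 6 months in wild-type cortex, 2 regulatory-particle scaffold subunits were lower at the later age, Psmd3 and Psmd1, while 23.4% of all 18187 genes tested were called. The leading numbers of the sample names fall in separate ranges at the 2 ages. Age and any difference between those series of samples therefore cannot be told apart. Psmd3 was between 84.6 and 97.2 CPM at 10 months, with a median of 91.9, against 93.1 to 102.8 CPM with a median of 96.3 at 6 months. The log2 difference was -0.10 ± 0.025 (adjusted p = 0.0015, edgeR, n = 16 each), and 15 of 16 libraries at 10 months were below the 6-month mean, with overlap. Log2 differences between the ages stand at the female level, while levels and library counts are of both sexes. Over both sexes the Psmd3 means were 91.5 ± 3.8 CPM at 10 months and 96.8 ± 3.0 CPM at 6 months. Psmd1 was between 99.8 and 118.0 CPM at 10 months, with a median of 107.7, against 102.3 to 119.8 CPM with a median of 113.9 at 6 months (log2 difference -0.063 ± 0.022, adjusted p = 0.027).

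Of the 34 members 18 were negative and the median was -0.0026, with the alpha subunits at 0.043 and the constitutive beta subunits at -0.011. Psmd2, another scaffold, had a log2 difference of 0.046 (adjusted p = 0.052) and Psmd4 one of -0.062 (adjusted p = 0.11). Both were called, beside Psmd3 and Psmd1, without the 2 libraries of high mitochondrial share. Psmd1 was not called without WTwithQ50_10mo_Female replicate 2 (adjusted p = 0.050) or WTwithQ20_10mo_Female replicate 4 (adjusted p = 0.054), and neither gene was called once the L code in the sample descriptions was a factor in the fit. That factor had separate levels at each age, so its fit cannot decide on a difference between the ages. Of the 12 striatal projection neuron markers 11 were lower at 10 months (median -0.81), as were the 5 cholinergic markers tested (median -1.67), and 3 of 7 choroid plexus markers were higher (median 1.48). Of 9 cortical excitatory neuron markers 3 were higher and 1 was lower (median 0.045), of 7 interneuron markers 1 was higher and 2 were lower (median -0.11), and of 12 microglial markers 2 were higher and 2 lower (median 0.020). Of 8 oligodendrocyte markers 2 were higher (median 0.052), as was 1 of 7 endothelial markers, while 1 marker each of the meningeal, olfactory bulb and lymphocyte lists was lower and no astrocyte marker was called. Their part in the lower Psmd3 and Psmd1 was not tested.

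No member was called between males and females at 10 months, where 3.49% of all genes were called, or at 6 months, where 2.37% were. At 10 months the 11 non-ATPase and 6 ATPase subunits all had positive male-minus-female differences, with medians of 0.027 and 0.022, against 48.7% of all genes with a positive difference, and Psmd3 had the largest at an unadjusted p under 0.05 (0.048, adjusted p = 0.12, edgeR). Psmd3 was called when Q20_10mo_Female replicate 4 was left out (adjusted p = 0.039). At 6 months Psmb5 had a difference of 0.056 (adjusted p = 0.48) and was called without the 2 libraries of high mitochondrial share (0.062, adjusted p = 0.046). Psmb9 had a male-minus-female difference of -0.16 at 10 months (adjusted p = 0.30), with 18 of 23 male libraries below the female mean. At 6 months it was -0.22 (adjusted p = 0.21), with 19 of 24 below.

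Genes that act with the proteasome were described from lists of the same pathway. In Q20 cortex at 10 months, 1 of the 8 assembly chaperones tested was lower: Pomp, which guides the closing of the core (65.6 ± 3.2 CPM against 70.9 ± 4.4 CPM in WTwithQ20; log2 difference -0.12, adjusted p = 0.042, edgeR). Of 6 receptors and ubiquitin-editing enzymes bound to the regulatory particle, 1 was higher: Ecpas, a scaffold that binds proteasomes (145.3 ± 8.1 CPM against 133.8 ± 7.9 CPM; 0.12, adjusted p = 0.043). None of 5 caps and inhibitors, 7 regulators of proteasome gene transcription, 4 ubiquitin genes or 16 antigen-processing and interferon-response genes was called. In the other 7 comparisons of a line with wild type no gene of these lists was called. The median of the 4 ubiquitin genes in Q20 cortex at 10 months was -0.092, with all 4 negative.

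Among the antigen-processing and interferon genes, those that accompany Psmb8 and Psmb9, the calls fell in other comparisons. B2m, the light chain of class I molecules, had a slope of 0.18 per 100 CAG repeats at 10 months (adjusted p = 0.010, edgeR), and Gbp2, an interferon-induced GTPase, one of 0.34 (adjusted p = 0.028). Gbp2 was also lower in WTwithQ20 than in WTwithQ50 cortex at 10 months (3.498 ± 0.49 against 4.37 ± 0.76 CPM; -0.32, adjusted p = 0.047), in the comparison that called Psmb8. At 10 months 5 of 16 were lower in males, among them Gbp3 (-0.30), Ifit3 (-0.35) and B2m (-0.15), while 3.49% of all genes were called by sex. At 6 months 6 of 16 were, among them Gbp3 (-0.41), Ifit3 (-0.41) and Irf7 (-0.31), while 2.37% of all genes were called. Psmb8 and Psmb9 were not among the genes called by sex. Markers of other cells also differed by sex: at 6 months 5 of 7 choroid plexus markers (median 1.39) and 2 of 8 meningeal markers (median 0.20) were higher in males, and 2 of 8 astrocyte, 1 of 12 microglial and 1 of 8 oligodendrocyte markers were lower. At 10 months 1 marker each of the astrocyte, microglial, oligodendrocyte and endothelial lists was lower, 1 endothelial marker was higher, and no choroid plexus marker was called (median 0.60). Their part in the differences by sex was not tested.

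Between 10 and 6 months in wild-type cortex, the genes called were 3 of 6 receptors and ubiquitin-editing enzymes, 4 of 7 transcription regulators, 2 of 5 caps and inhibitors, 2 of 8 substrate shuttles, 1 of 8 assembly chaperones, 1 of 16 antigen-processing and interferon genes and none of 4 ubiquitin genes, while 23.4% of all genes were called. Adrm1, a ubiquitin receptor of the regulatory particle, was lower at 10 months (41.4 ± 4.1 CPM, against 47.5 ± 1.9 CPM at 6 months; log2 difference -0.23, adjusted p = 9.7e-06, edgeR), and Usp14, a deubiquitinase bound to Psmd2, was higher (121.1 ± 6.2 against 112.5 ± 7.0 CPM; 0.13, adjusted p = 0.00080). Psme1, a subunit of the interferon-inducible cap, was lower (-0.18), and Psmf1, an inhibitor of the core, was higher (0.093). Of the transcription regulators Keap1 (-0.15), Mafk (-0.26) and Mafg (-0.12) were lower and Nfe2l3 (0.18) was higher. The shuttles Ubqln1 (0.092) and Ubqln4 (0.084) and the ubiquitin ligase Ube3c (0.11) were higher, and the chaperone Psmg4 (-0.21) and Tapbp of antigen loading (-0.12) were lower. As for the members, these log2 differences stand at the female level, and age cannot be told apart from the series of sample numbers.

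RefSeq promoter windows were at hand for 28 of the 34 members (30 windows, since a gene can have several starts). Each window of 250 bases was searched on both strands, and the same search was run on 32851 windows of 27025 genes. The antioxidant response core TGACNNNGC was found in 4 of 30 member windows (13.3%: Psmb5, Psmb6, Psmc6 and Psmd12), against 10.2% of all windows. The CCAAT box was found in 11 of 30 (36.7%), against 33.8% of all. A pair of GAAA copies 2 bases apart, the interferon-stimulated response core, was found in 2 of 30 (6.67%: Psmb3 and Psmd4), against 2.98%, and in none of the windows of Psmb8, Psmb9 and Psmb10. These matches describe letters in the windows and not bound sites. The 34 members lie on 14 chromosomes, and Psmc2 is the only member on chromosome 5, which holds Htt. Psmc2 was not called in any comparison.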

How the data were processed

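Messenger RNA of mouse cerebral cortex was sequenced in 95 libraries. The deposited tables hold the authors' estimated counts per gene, of which 67% of the nonzero values are whole, and the authors' FPKM per gene. Per the submitters' processing notes, CASAVA 1.8.2 was used. The aligner, counter, annotation, build or strand setting is not given in the sources used here. Per the labels' protocols, a Qiagen kit gave total RNA from frozen tissue, and an enriched fraction went into Illumina libraries. Labels number libraries within a group without stating that each is a separate animal, so p-values measure only the spread between libraries. No libraries were duplicates of each other.

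After rounding to whole numbers, the estimated counts were tested with edgeR 4.0.16 (quasi-likelihood test, TMM scaling, filterByExpr with a minimum count of 10 and a minimum total of 15) in R 4.3.3. Each age had its own fit with sex as covariate, and contrasts between ages came from a fit of all libraries with a sex term per age. The contrast of the ages in wild type therefore stands at the female level. In the age differences of the line effects the sex terms cancel, so those apply to both sexes. Adjusted p-values are Benjamini-Hochberg over all genes tested, with a threshold of 0.05. A ± beside a log2 difference is a standard error, and one beside a level is an SD. Alternatives used DESeq2 1.42.0 and limma 3.58.1 (log2 FPKM plus 0.1 or 1), other filters, other wild types, the L code, a replicate block and leaving out libraries. The ratios were tested on log2 of FPKM plus 0.1 by exact permutation of libraries. The scripts were tested on simulated data.

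Symbols were paired with 37607 identifiers. The members and all gene lists were chosen with earlier results of these data known. All members are named with their wild-type level, and members called in a line, the immunoproteasome subunits and the subunits they replace are given in every group; in the other comparisons called members are named, and some members with an unadjusted p under 0.05 were named after their values were seen. Promoter sequences are from RefSeq (GRCm38.p6). Coordinates of other genes are not used here. Some genes and motifs of these lists are not reported here.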

Additional observations from a re-analysis of the deposited data

Results flagged for a closer look

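Within groups of line and age, the highest or lowest library was compared with its neighbour for 13 measures: the levels of 9 subunit genes, the sum of the 31 constitutive members and the 3 ratios of immunoproteasome to constitutive subunits. In 24 of 156 combinations of measure and group the gap was larger than Dixon's limit at the 95% level. For independent values chance gives about 1 in 20. The measures share genes and move together between libraries, so the combinations are not independent. Their count cannot be read as an excess over chance.

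Q50_6mo_Female replicate 4 was above the other Q50 libraries at 6 months in Psmb5 (80.65 FPKM), Psmb6 (102.6 FPKM), Psmb7 (87.52 FPKM) and the summed level of the 31 constitutive members (1983 FPKM). Q92_6mo_Male replicate 3 was above its group in Psmb5 (76.53 FPKM), Psmc5 (110.1 FPKM), Psmb6 (96.58 FPKM), Psmb7 (90.99 FPKM) and the same sum (2045 FPKM). These are the 2 libraries with the highest mitochondrial shares, 14.7% and 13.6%, and the largest summed counts, 41.1 M and 39.3 M.

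In Q20 cortex at 10 months, Q20_10mo_Female replicate 1 was lowest in Psmb7 (58.29 FPKM), and Q20_10mo_Female replicate 4 was highest in Psmb10 (17.73 FPKM) and in Psmb10 relative to Psmb7 (27.97%).

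Among WTwithQ20 libraries at 10 months, WTwithQ20_10mo_Male replicate 2 was highest in Psmc5 (103.1 FPKM), Psmb6 (81.22 FPKM), Psmb7 (75.3 FPKM) and the constitutive sum (1820 FPKM), and WTwithQ20_10mo_Female replicate 2 was lowest in Psmb5 (53.88 FPKM) and in Psmb10 relative to Psmb7 (19.27%). At 6 months WTwithQ20_6mo_Male replicate 2 was highest in Psmb5 (65.23 FPKM), and WTwithQ50_6mo_Female replicate 3 was lowest in Psmc5 (83.73 FPKM).

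The low-level Psmb9 stood apart in Q140_10mo_Female replicate 4 (1.591 FPKM) and WTwithQ50_10mo_Female replicate 1 (1.558 FPKM). Psmb9 relative to Psmb6 stood apart in Q92_6mo_Male replicate 1 (2.554%) and WTwithQ50_10mo_Female replicate 1 (2.012%).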

How the results depend on the processing

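Of 9331 values recomputed under alternatives, 9062 stayed on their side of the threshold or, for counts and medians, close to the main value. The direction of values not called was not compared, and no called value changed sign. For Q20 against wild type at 10 months the 2 members called became 0 with no filter on low counts, with the L code as a factor, with limma on FPKM plus 0.1 with no filter, and against both wild-type groups. Without single libraries the count was between 0 and 6. For wild-type housing at 10 months the 1 member called became 2 with the DESeq2 Wald test and 3 in each of the 3 limma fits on FPKM, and was between 1 and 3 without single libraries. For age in wild type the 2 members called became 1 with no filter, 0 with the L code and 4 without the 2 libraries of high mitochondrial share, and were between 1 and 3 without single libraries. The 0 with the L code decides nothing on age, because the levels of that factor were separate at each age. The age difference of the Q92 effect had 1 member called with the DESeq2 Wald test and 1 with the L code, against 0 in edgeR, and between 0 and 2 without single libraries. Against WTwithQ20 alone, 2 members were called in Q140 and 1 in Q92 at 10 months, against 0 with both wild-type groups. The levels of these members in each wild-type group are given above. Between the sexes 1 member was called at 6 months without the 2 libraries, and between 0 and 1 at 10 months without single libraries, as for the CAG trend at 10 months. The log2 difference of Psmb10 over Psmb7 in Q92 at 6 months was between 0.10 and 0.17 without single libraries. The cause of these changes was not tested. A filter at a mean of 5 CPM removes Psmb8 and Psmb9, so it gives no value for them.

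With the replicate number of the labels as a replicate block, the counts of members called were 2 in Q20 at 10 months, 1 for housing at 10 months, 2 for age and 0 elsewhere, as without it. Same-numbered libraries did not deviate together (mean r -0.0085 at 10 months and 0.0040 at 6 months), and 9 of 47 and 11 of 48 libraries correlated best with their own number, so the numbers do not pair the samples.

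Depth limits Psmb8 and Psmb9, which had means of 96.1 and 45.8 estimated counts in a wild-type library.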
